A study of Mus musculus with 10 samples.

Results

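The minichromosome maintenance (MCM) helicase and replication licensing genes described here are *Mcm2*, *Mcm3*, *Mcm4*, *Mcm5*, *Mcm6*, *Mcm7*, *Cdc6*, *Cdt1*, *Mcm10* and *Cdc45*. They were picked by name, and each of the 10 symbols matched 1 of the 54146 genes in the count table. All 10 passed the expression filter and were among the 19773 genes tested between genotypes. RNA came from the lumbar spinal cord of 10 mouse embryos at E12.5, with the dorsal root ganglia left attached. The 5 *Dot1l*-cKO embryos carried the Wnt1cre2 transgene and 2 floxed alleles of *Dot1l*, the gene for the H3K79 methyltransferase. The 5 control littermates carried no transgene, and by the labels they had 2 floxed alleles in litter 1 (3 embryos) and 1 in litter 2 (2 embryos). Litter 1 also held 3 *Dot1l*-cKO embryos and litter 2 held 2. Single embryos are named as their labels name them, with Ctr for controls and Mut for *Dot1l*-cKO. Every group therefore carried at least 1 floxed allele. Wnt1-cre acts mostly in the dorsal neural tube and the neural crest, so the *Dot1l*-cKO tissue can hold cells with an intact gene, and the strain name places the transgene at *E2f1*.

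Before a cell copies its DNA, the origin recognition complex, Cdc6 and Cdt1 load rings of Mcm2 to Mcm7 onto chromatin in G1, a step called licensing. In S phase, kinases and firing factors turn loaded rings, though not all of them, into active helicases by adding Cdc45 and the GINS complex, with help from Mcm10. These genes are transcribed in cycling cells, largely under E2F transcription factors, and are switched off when progenitors of the spinal cord leave the cell cycle as neurons. In bulk RNA, fewer cycling cells and less RNA per cycling cell cannot be told apart.

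The total count per embryo lay between 40949585 and 68928443, and the licensing genes had between 421 and 11851 counts each per embryo. *Dot1l* lay between 87.6 and 107 CPM (counts per library size, TMM-normalized) in controls of litter 1 and between 97.8 and 110.0 CPM in *Dot1l*-cKO embryos of litter 1, and the corresponding ranges in litter 2 were 89.8 to 91.0 and 107 to 112 CPM. Counts over the whole gene thus do not check the deletion, and *Dot1l*-cKO is used here as the label of an embryo. Both *Dot1l*-cKO embryos of litter 2 had *Xist* at 6.00 to 6.79 CPM and high Y-linked counts, whereas *Xist* was at 689 to 792 CPM in the litter 2 controls and at 499 to 890 CPM in litter 1. In litter 2, sex and genotype cannot be told apart. No gene of the lists of neural, ganglion, mesenchyme, endothelial, blood or microglia markers was at 0 in a whole group.

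RefSeq promoters (GRCm38.p6, 250 bases before to 50 after the RefSeq gene start) were at hand for 9 of the 10 genes, with 2 for *Mcm7* and none for *Mcm4*. They were searched on both strands for the E2F words TTTCCCGC, TTTCGCGC, TTTGCCGC and TTTGGCGC, which can overlap. A word was found for *Mcm3*, *Mcm5*, *Mcm6*, *Mcm7*, *Cdt1* and *Cdc6*, 6 of the 9 genes, against 2.26% of all 32851 promoters and 3.51% of the 16910 promoters of tested genes. No such word was in the windows of *Mcm2*, *Mcm10* and *Cdc45*. The *Mcm10* window ended in TTTGGCG, all but the last letter of TTTGGCGC, and the base after it was not searched. CCAAT, the NF-Y motif, was present for 7 of 9 genes and in 37.4% of all promoters, and TTTGAA, the CHR motif, for 2 of 9 genes (*Mcm2* and *Cdc45*) and in 17.9%. Printed here are the promoters of *Mcm6* and *Cdc45*, which passed the test between genotypes, of *Cdt1*, which passed as higher in *Dot1l*-cKO embryos in the fit of litter 2, and of *Mcm5*, whose pattern over embryos was nearest to the mean of the 10 genes. Capitals mark the E2F words on either strand, and each run reads 5′ to 3′ on the strand of the gene. The windows are chr1:128359656-128359955 on the minus strand for *Mcm6*, chr16:18811923-18812222 on the minus strand for *Cdc45*, chr8:122567765-122568064 on the plus strand for *Cdt1* and chr8:75109259-75109558 on the plus strand for *Mcm5*.
Mcm6: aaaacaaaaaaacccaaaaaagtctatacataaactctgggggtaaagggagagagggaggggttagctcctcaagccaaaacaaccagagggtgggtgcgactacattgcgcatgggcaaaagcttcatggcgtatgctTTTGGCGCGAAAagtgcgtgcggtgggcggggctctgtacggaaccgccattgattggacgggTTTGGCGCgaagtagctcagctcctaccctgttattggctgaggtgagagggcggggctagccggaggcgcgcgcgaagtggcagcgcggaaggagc
Cdc45: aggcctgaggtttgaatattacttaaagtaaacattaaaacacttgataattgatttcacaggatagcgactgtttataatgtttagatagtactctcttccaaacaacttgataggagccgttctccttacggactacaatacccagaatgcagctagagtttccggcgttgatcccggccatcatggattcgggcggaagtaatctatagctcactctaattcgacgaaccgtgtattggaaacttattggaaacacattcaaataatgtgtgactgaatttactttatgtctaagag
Cdt1: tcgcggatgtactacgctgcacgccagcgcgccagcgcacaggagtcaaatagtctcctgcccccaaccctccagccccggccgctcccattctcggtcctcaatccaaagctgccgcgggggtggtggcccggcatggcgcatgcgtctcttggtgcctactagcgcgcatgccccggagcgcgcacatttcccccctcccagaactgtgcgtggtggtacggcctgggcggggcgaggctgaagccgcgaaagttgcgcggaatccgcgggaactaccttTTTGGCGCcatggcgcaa
Mcm5: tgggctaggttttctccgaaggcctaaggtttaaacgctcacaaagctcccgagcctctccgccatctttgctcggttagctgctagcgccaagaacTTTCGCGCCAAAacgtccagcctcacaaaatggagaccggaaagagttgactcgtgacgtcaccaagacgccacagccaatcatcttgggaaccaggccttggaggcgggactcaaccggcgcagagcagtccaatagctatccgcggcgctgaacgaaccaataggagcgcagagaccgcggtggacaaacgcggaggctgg
The *Mcm6* window held 3 words, 2 of them overlapping at positions -110 and -106 from the gene start and 1 at position -47. In *Mcm5* the 2 words overlapped in the same way, at positions -153 and -149. The word of *Cdt1* began at position 32. Positions count from the RefSeq start, which can differ from the start in the gene coordinates given elsewhere here. A match is a description of the letters and not of binding.

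Per kilobase of exon, the ring subunits were far above the loading and activation factors. Among the controls of litter 1, *Mcm7* was at 31.6 ± 0.87 CPM per kb (SD, n = 3), *Mcm6* at 20.6 ± 0.31, *Mcm4* at 18.8 ± 0.68, *Mcm3* at 15.8 ± 0.72, *Mcm5* at 15.6 ± 0.50 and *Mcm2* at 13.2 ± 0.79. *Mcm3* and *Mcm5* did not differ beyond their spread, and the ranges of the other neighbours in this order did not overlap. The order depends on the length used, since by the principal transcript *Mcm2* was at 27.2 CPM per kb, above *Mcm3* at 19.6, *Mcm4* at 18.8 and *Mcm5* at 18.5. *Cdc45* followed at 3.53 ± 0.04 CPM per kb, *Cdt1* at 3.48 ± 0.65, *Cdc6* at 2.09 ± 0.04 and *Mcm10* at 1.80 ± 0.23. *Cdc45* and *Cdt1* overlapped, as did *Cdc6* and *Mcm10*. The library kit does not mark strand, so reads on shared exon bases of opposite genes cannot be told apart: 321 bases of *Mcm7* (chromosome 5 from 138164583 to 138172422) are shared with *Ap4m1* and 64 with *Cops6*, and 209 bases of *Cdc45* (chromosome 16 from 18780447 to 18811987) with *Ufd1*. These neighbours were looked up after the values were seen, and *Ap4m1* (log2 fold change between genotypes -0.10), *Cops6* (0.06) and *Ufd1* (-0.03) did not pass the test.

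The plot of CPM by embryo shows that the level of all 10 genes went with the litter. In every licensing gene, each of the 4 embryos of litter 2 was above each of the 6 embryos of litter 1, a separation that 11.9% of the tested genes showed. Within the controls, the quasi-likelihood test of edgeR, adjusted by Benjamini-Hochberg, called 10 of 10 licensing genes higher in litter 2, against 11.6% of all genes tested. The fold between the litters' mean CPM in controls ran from 1.58 (*Cdt1*) to 2.23 (*Cdc6*), and in *Dot1l*-cKO embryos from 1.54 (*Mcm7*) to 2.30 (*Mcm10*). The median log2 fold change of the 10 genes among controls was 0.88, beside -0.01 over all tested genes. *Cdc6* had the highest value (1.16, SE 0.10) and *Cdt1* the lowest (0.66, SE 0.15, adjusted p = 0.0087). Without Ctr_190-7 the *Cdt1* difference was 0.48 with an adjusted p of 0.105, and with each other control left out it passed. Without a litter 2 control that litter is 1 embryo, and the spread comes from litter 1. The controls of the litters also differ in floxed alleles, which cannot be told apart from litter here.

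**Figure D1:**
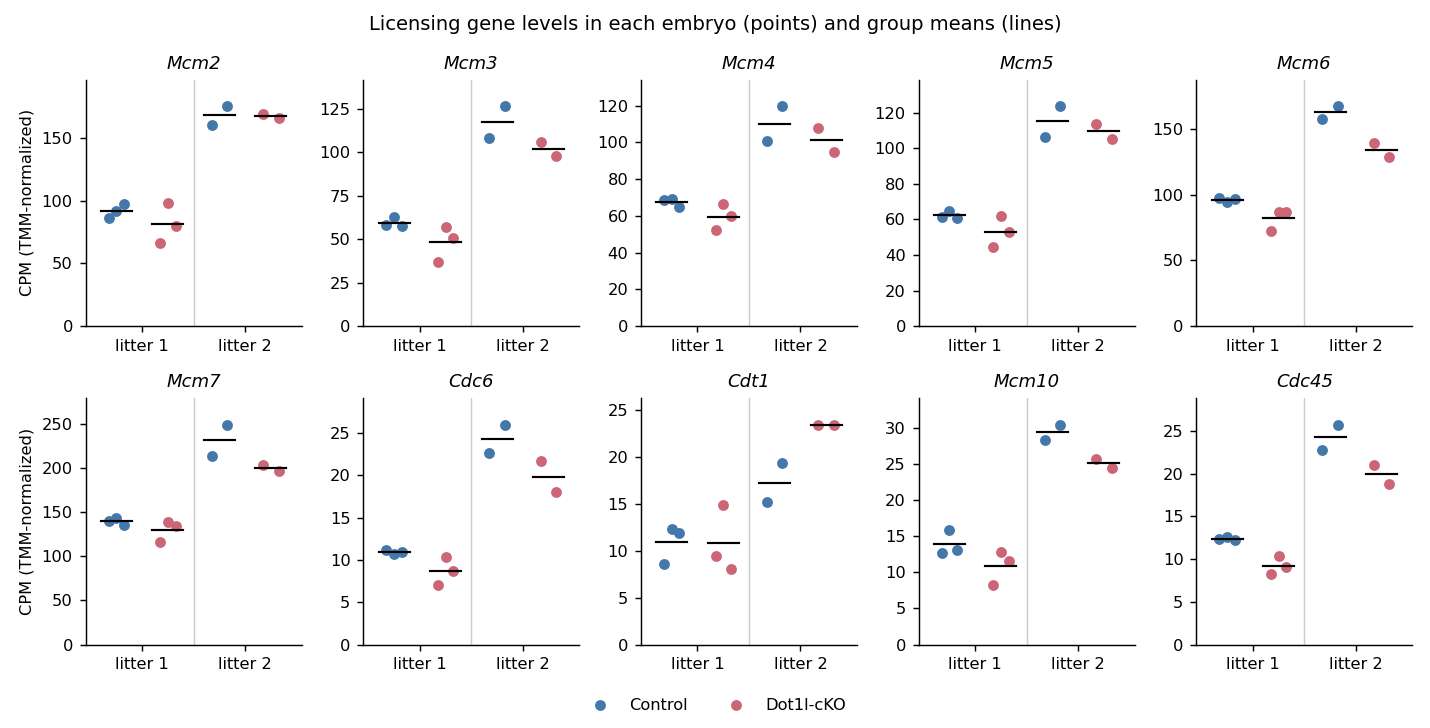
Level of each licensing gene in each embryo, in CPM after TMM normalization (vertical axes from 0), with points for embryos, blue for controls, red for *Dot1l*-cKO, and a black line for the mean of each group within its litter. In each panel the 4 embryos of litter 2 lie above the 6 of litter 1.

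Other lists differed between the litters as well, and their counts stand beside 11.6% of all genes called higher and 12.9% called lower in litter 2. Among the controls, the mitosis genes, such as *Top2a* (log2 fold change 1.17), were higher in litter 2 in 15 of 15 cases, with a summed level of 941 to 1076 CPM in litter 1 and 2063 to 2096 CPM in litter 2. Neural progenitor markers passed the test as higher in 7 of 10 cases and as lower in 1, with a sum of 3190 to 3359 CPM in litter 1 and 3919 to 4126 CPM in litter 2. *Nes*, an intermediate filament of progenitors, was among the higher ones (0.82). The pan-neuronal markers had sums of 8573 to 8836 and 8461 to 8525 CPM, with 2 of 10 lower, a share near that of all genes. Dorsal root ganglion markers were lower in litter 2 in 7 of 9 cases, with sums of 802 to 855 and 334 to 351 CPM. Schwann precursor markers were lower in 4 of 6 cases, mesenchyme markers in 4 of 6 and endothelial markers in 5 of 5. Of 7 blood markers 2 were higher and 1 lower. The part of tissue composition in the litter difference of the licensing genes was not tested.

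Between genotypes the log2 fold changes of the 6 ring subunits were all negative, and with the litter in the model *Mcm6* was the 1 of them that passed the test. *Mcm6* (chromosome 1 from 128331590 to 128359664, minus strand) was at 97.3, 94.6 and 96.9 CPM in the controls of litter 1 and at 72.4, 86.7 and 86.7 CPM in the *Dot1l*-cKO embryos of that litter. In litter 2 it was at 158 and 168 CPM in controls and at 139 and 129 CPM in *Dot1l*-cKO embryos. All 5 *Dot1l*-cKO embryos were below every control of their litter. The log2 fold change was -0.25 (SE 0.05, 95% interval -0.37 to -0.14, adjusted p = 0.0318 by edgeR).

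*Mcm3* was at 58.2, 62.6 and 57.6 CPM in controls and at 36.8, 57.1 and 50.6 CPM in *Dot1l*-cKO embryos of litter 1. In litter 2 the controls were at 109 and 127 CPM and the *Dot1l*-cKO embryos at 106 and 97.7 CPM. The groups did not overlap in either litter, but 57.1 lay just under the lowest control, and the log2 fold change of -0.26 (SE 0.09) had an adjusted p of 0.123. *Mcm7* was at 140.0, 143 and 136 CPM in controls and at 117, 139 and 134 CPM in *Dot1l*-cKO embryos of litter 1, where the groups overlapped. In litter 2 its controls were at 214 and 250 CPM and its *Dot1l*-cKO embryos at 203 and 197 CPM, all below both controls. Its log2 fold change was -0.15 (SE 0.06, adjusted p = 0.157).

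For the other 3 subunits the groups overlapped in both litters. *Mcm2* was at 86.1, 91.6 and 97.2 CPM in controls and at 66.3, 98.5 and 80.0 CPM in *Dot1l*-cKO embryos of litter 1, and at 161 and 175 against 169 and 166 CPM in litter 2. Its mean in litter 2 was therefore nearly the same in both groups, and its log2 fold change over both litters was -0.10 (SE 0.08, 95% interval -0.28 to 0.08, adjusted p = 0.519). *Mcm4* ranged from 64.6 to 69.1 CPM in controls and from 52.3 to 66.6 CPM in *Dot1l*-cKO embryos of litter 1, and from 100.5 to 119.7 against 94.8 to 108 CPM in litter 2 (log2 fold change -0.16, adjusted p = 0.205). *Mcm5* ranged from 60.9 to 64.6 CPM against 44.6 to 62.0 CPM in litter 1, and from 107 to 124 against 105 to 114 CPM in litter 2 (-0.17, adjusted p = 0.227).

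Of the loading factors, which place the rings on DNA, neither passed the test over both litters. *Cdc6*, the ATPase that binds origins with the origin recognition complex, was at 11.1, 10.7 and 10.9 CPM in controls and at 7.01, 10.3 and 8.66 CPM in *Dot1l*-cKO embryos of litter 1. In litter 2 it was at 22.7 and 26.0 CPM in controls and at 21.7 and 18.1 CPM in *Dot1l*-cKO embryos. All 5 *Dot1l*-cKO embryos were below the controls of their litter, with a log2 fold change of -0.32 (SE 0.10, adjusted p = 0.0797). DESeq2's Wald test gave an adjusted p of 0.0238 for *Cdc6*.

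*Cdt1*, the partner that brings the rings to Cdc6, varied more. In litter 1 it was at 8.57, 12.3 and 11.9 CPM in controls and at 9.44, 14.9 and 8.05 CPM in *Dot1l*-cKO embryos, which lay on both sides of the controls. In litter 2 it was at 15.2 and 19.4 CPM in controls and at 23.5 and 23.4 CPM in *Dot1l*-cKO embryos, both above the controls. Over both litters the log2 fold change was 0.17 (SE 0.16, 95% interval -0.17 to 0.52, adjusted p = 0.576). It was the one positive value among the 10 genes.

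Of the activation factors, *Cdc45* passed the test. *Cdc45*, which joins the ring as part of the moving helicase, was at 12.34, 12.53 and 12.25 CPM in controls and at 8.27, 10.38 and 9.02 CPM in *Dot1l*-cKO embryos of litter 1. In litter 2 it was at 22.8 and 25.7 CPM in controls and at 21.04 and 18.79 CPM in *Dot1l*-cKO embryos, so that all 5 were again below the controls of their litter. The log2 fold change was -0.37 (SE 0.08, 95% interval -0.53 to -0.20, adjusted p = 0.0306). *Mcm10*, which helps start the helicase, was at 12.7, 15.9 and 13.0 CPM in controls and at 8.31, 12.8 and 11.5 CPM in *Dot1l*-cKO embryos of litter 1. One of the latter overlapped with the controls. In litter 2 its values were 28.3 and 30.4 CPM in controls and 25.7 and 24.4 CPM in *Dot1l*-cKO embryos, with a log2 fold change over both litters of -0.30 (SE 0.10, adjusted p = 0.120).

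In all, 2 of the 10 licensing genes (*Mcm6* and *Cdc45*) passed as lower in *Dot1l*-cKO embryos, beside 1.09% of all tested genes, and 0 passed as higher, beside 1.90%. At an unadjusted p below 0.05 the counts were 8 lower and 0 higher, beside 21.7% of all genes in either direction. DESeq2 called 3 lower, beside 3.56%, and 0 higher, beside 4.74%. The log2 fold change was negative for 9 of 10, beside 52.0% of all tested genes, with a median of -0.21 beside -0.01 over all tested genes. Without Mut_181-2 the median was -0.14. In 4 of 10 (*Mcm3*, *Mcm6*, *Cdc6* and *Cdc45*) every *Dot1l*-cKO embryo was below every control in both litters, as in 4.15% of tested genes. Both calls depended on single embryos. They passed without Mut_181-3, Mut_181-7 or Mut_190-4, and missed the threshold without any one of the other 7. The adjusted p for *Mcm6* and *Cdc45* was 0.0668 and 0.0721 without Mut_181-2, 0.106 and 0.0997 without Mut_190-6, 0.0810 and 0.0810 without Ctr_181-4, 0.0508 and 0.0572 without Ctr_181-5, 0.0605 and 0.0602 without Ctr_181-9, 0.0690 and 0.0527 without Ctr_190-5, and 0.0717 and 0.0694 without Ctr_190-7. The fold changes stayed between -0.28 and -0.20 for *Mcm6* and between -0.41 and -0.32 for *Cdc45*. Without the litter term the adjusted p was 0.728 for *Mcm6* and 0.740 for *Cdc45*.

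**Figure D2:**
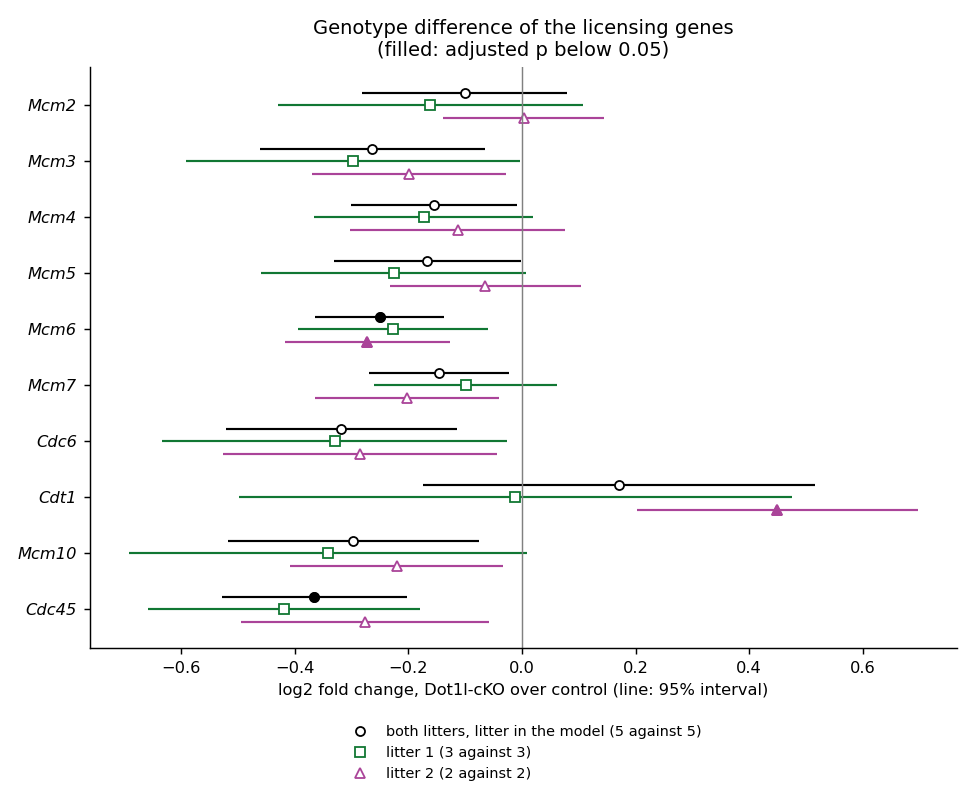
Log2 fold change of each licensing gene in *Dot1l*-cKO over control embryos, with its 95% interval, for both litters with the litter in the model (black circles), litter 1 (green squares) and litter 2 (purple triangles), where filled symbols have an adjusted p below 0.05. *Mcm6* is filled in black and purple, *Cdc45* in black, and *Cdt1* in purple on the positive side.

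Within litter 1, 0 of the 10 genes passed, beside 0.0623% of all genes in either direction. At an unadjusted p below 0.05 there were 4 (*Mcm3*, *Mcm6*, *Cdc6* and *Cdc45*), all lower, beside 14.1% of all genes in either direction. DESeq2's Wald test called 1, *Cdc45* (adjusted p = 0.0211), beside 3.53% of all genes in either direction. *Cdc45* also had the largest log2 fold change in the edgeR fit (-0.42, SE 0.11, adjusted p = 0.142), followed by *Mcm10* (-0.34) and *Cdc6* (-0.33). Within litter 2, *Mcm6* passed as lower (-0.27, SE 0.07, adjusted p = 0.0363), 1 of 10 beside 1.16% of all genes. *Cdt1* passed as higher (0.45, SE 0.11, adjusted p = 0.0418), 1 of 10 beside 3.98%. At an unadjusted p below 0.05 there were 6 lower and 1 higher in litter 2, beside 20.7% of all genes in either direction. With 2 embryos a group these calls moved with single embryos, and leaving 1 out takes the spread from the other group alone, with the lone embryo assumed to vary likewise. *Mcm6* missed the threshold without Mut_190-6 (adjusted p = 0.384) and without Ctr_190-7 (0.131), and *Cdt1* without Mut_190-4 (0.0677), Mut_190-6 (0.107) or Ctr_190-5 (0.147). Without Ctr_190-5, *Mcm3* (0.0421) and *Mcm7* (0.0253) passed as lower too. The medians of the 10 genes were -0.23 in litter 1 and -0.20 in litter 2. Without Mut_181-2 the litter 1 median was -0.12, and without Mut_181-3 it was -0.34. The litter 2 median was -0.0699 without Ctr_190-7 and -0.28 without Ctr_190-5.

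The difference between the litters in the genotype effect was tested itself, and 0 of the 10 genes passed, beside 0.00978% of all genes. At an unadjusted p below 0.05 there were 0 of the 10, beside 8.05%, and DESeq2 also called 0, beside 0.552%. The interaction of *Cdt1* was 0.46 on the log2 scale with a wide interval (-0.20 to 1.13, adjusted p = 0.711). For *Mcm6* it was -0.05 (-0.28 to 0.19) and for *Cdc45* 0.14 (-0.19 to 0.47). A rise of *Cdt1* in litter 2 and not in litter 1 was thus not shown to differ between the litters.

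The embryos of the *Dot1l*-cKO group differed among themselves. Taking each gene's log2 CPM minus the mean of the controls of its litter, the median over the 10 genes was -0.48 in Mut_181-2, -0.23 in Mut_181-7 and -0.04 in Mut_181-3. In litter 2 it was -0.16 in Mut_190-4 and -0.24 in Mut_190-6. Mut_181-7 was below every control of its litter in 10 of 10 genes and Mut_181-2 in 9, whereas Mut_181-3 was below every control in 4. In Mut_181-2 the deviation ran from -0.73 for *Mcm10* to -0.19 for *Cdt1*. *Cdt1* stood apart from the other genes in 3 *Dot1l*-cKO embryos, with a deviation of 0.47 in Mut_181-3, 0.45 in Mut_190-4 and 0.45 in Mut_190-6, where the medians were negative. It also stood apart in a control, with -0.33 in Ctr_181-4, where the other 9 genes lay between -0.12 and 0.03. These per-embryo values are descriptions without a test.

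**Figure D3:**
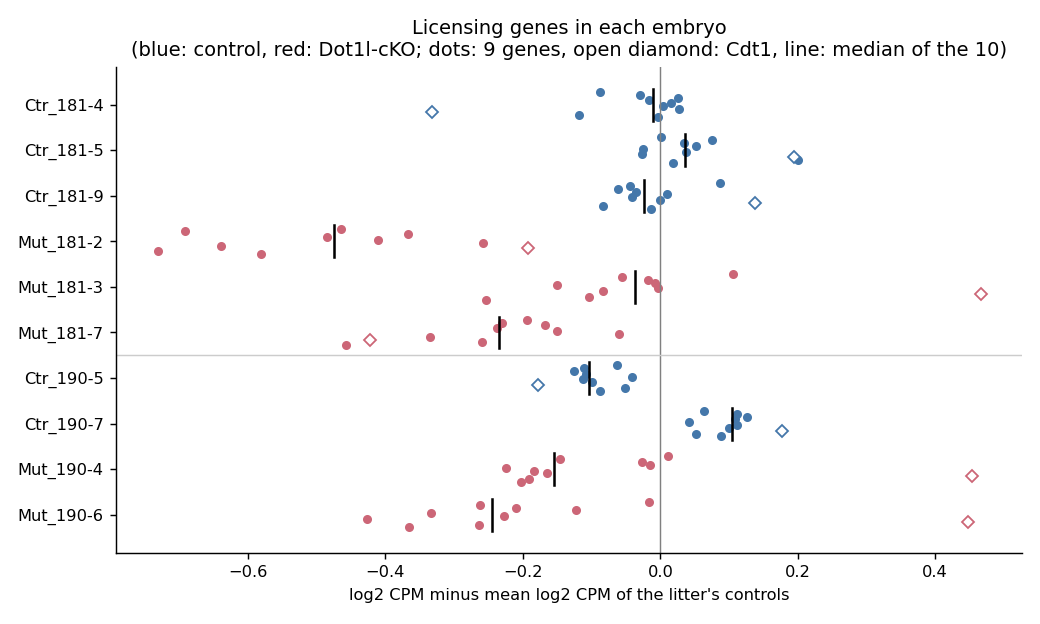
Each licensing gene in each embryo as log2 CPM minus the mean log2 CPM of the controls of the same litter, with *Cdt1* as an open diamond, the other 9 genes as dots, and a line at the median of the 10. Mut_181-2 lies furthest to the left at a median of -0.48, and the *Cdt1* diamonds of Mut_181-3, Mut_190-4 and Mut_190-6 lie right of 0.

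The other replication genes, taken from lists chosen by function, were tested between genotypes in the same fit. Of 72 such genes 65 had a negative log2 fold change, as did 52.0% of all tested genes, and the median was -0.14. As lower 5 of 72 passed, beside the 1.09% of all genes, and as higher 0 passed, beside 1.90%. Of the origin recognition complex, on which licensing starts, 0 of 6 passed (median -0.09), and *Orc2* had the smallest p (-0.14, adjusted p = 0.109). Of the GINS complex, which joins the ring with Cdc45, 0 of 4 passed (median -0.10), with *Gins4* nearest (-0.09, adjusted p = 0.417). Among the 8 firing factors *Dbf4*, the activator of the Cdc7 kinase, passed (-0.26, SE 0.06, adjusted p = 0.0368). None of the 7 genes for inhibition and turnover of licensing passed, and *Gmnn*, whose product geminin binds Cdt1, was nearest (-0.28, adjusted p = 0.0528). None of 5 MCM paralogs and binding proteins passed, their median was -0.05, and *Mcmbp* was nearest (-0.10, adjusted p = 0.167).

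Downstream of licensing, 1 gene passed in each of 4 lists. *Pola1*, the catalytic subunit of the primase-polymerase, had a log2 fold change of -0.33 (adjusted p = 0.0461, 1 of 12 polymerase and primase genes). *Pcna*, the sliding clamp, had one of -0.19 (adjusted p = 0.0492, 1 of 11 clamp and lagging strand genes). *Chaf1b*, a histone chaperone subunit, had one of -0.30 (adjusted p = 0.0444, 1 of 6 chromatin assembly genes), and *Tk1*, thymidine kinase, of -0.36 (adjusted p = 0.0497, 1 of 7 nucleotide supply genes). These adjusted p-values lie close to the threshold. Of the 6 fork protection genes 0 passed, with *Clspn* nearest (-0.33, adjusted p = 0.0576). The 15 mitosis genes had a lower median (-0.29) than the licensing genes, and 2 passed, *Mki67* (-0.49, adjusted p = 0.0376) and *Cenpf*, a kinetochore protein (-0.43, adjusted p = 0.0421). Each of these calls was lost without at least 1 embryo, and the number of the 10 leave-one-out fits that kept it ran from 1 (*Pcna* and *Tk1*) to 4 (*Mki67*). All 7 were lost without the litter term. With robust dispersions *Mki67* (adjusted p = 0.0958) and *Cenpf* (0.0903) missed the threshold. With library size only *Pola1* (0.0520), *Pcna* (0.0633) and *Tk1* (0.0610) missed it, and with limma-voom *Pcna* (0.0555) and *Tk1* (0.0578).

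Among genes that act on the G1/S step, *E2f1*, a transcription factor that binds E2F sites, was at 21.6 to 23.8 CPM in controls and 14.2 to 19.4 CPM in *Dot1l*-cKO embryos of litter 1, and at 42.0 to 47.0 against 36.5 to 38.8 CPM in litter 2. The difference was -0.32 on the log2 scale (adjusted p = 0.04997), a call kept in 1 of 10 leave-one-out fits and lost with library size only (0.0597) and limma-voom (0.0575). All *Dot1l*-cKO embryos and no control carried the transgene annotated at *E2f1*. Transgene and deletion therefore cannot be told apart, for this gene or for any licensing gene. *Ccne1*, cyclin E1, was lower (-0.34, adjusted p = 0.0364), *Ccne2* did not pass (-0.23, adjusted p = 0.122), and *Cdkn1a*, an inhibitor of cyclin-dependent kinases, was higher (0.34, adjusted p = 0.0418). The calls of *Ccne1* and *Cdkn1a* were kept in 2 of 10 such fits each, and that of *Cdkn1a* was lost with limma-voom (0.0540).

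**Figure D4:**
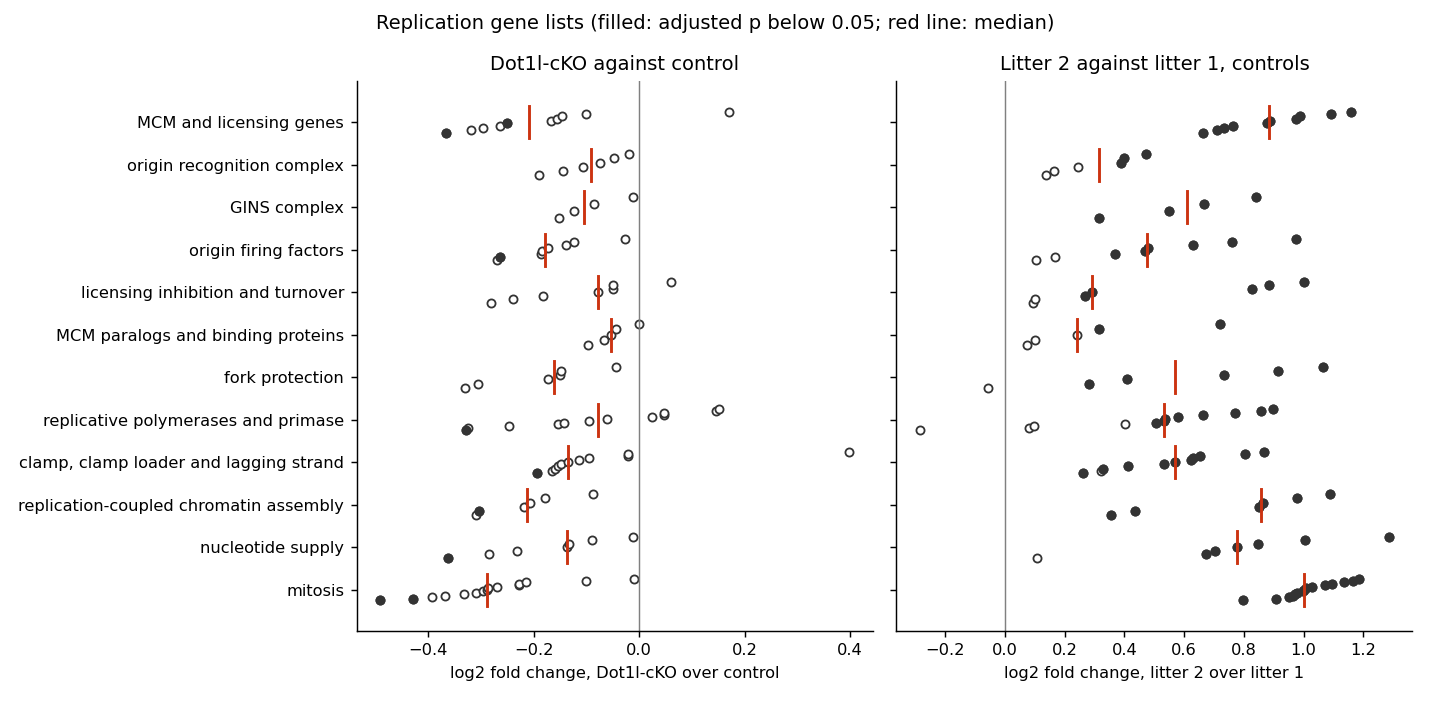
Log2 fold changes of the licensing genes and of the other replication and mitosis lists, 1 circle a gene, between genotypes (left) and between litters in controls (right), where filled circles have an adjusted p below 0.05 and red lines are medians. The licensing genes have a median of -0.21 on the left and 0.88 on the right, and the mitosis genes -0.29 and 1.003.

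In the fit of both litters, no marker of progenitors, neurons or ganglia passed between genotypes. Of 10 neural progenitor markers 0 passed, with sums of 3190 to 3359 CPM in controls and 2914 to 3320 CPM in *Dot1l*-cKO embryos of litter 1, and of 3919 to 4126 against 3946 to 4132 CPM in litter 2. Of 10 pan-neuronal markers 0 passed (8573 to 8836 against 8637 to 9389 CPM, and 8461 to 8525 against 8264 to 8817 CPM). Of 9 dorsal root ganglion markers 0 passed, but their sums went opposite ways in the litters, with 802 to 855 CPM in controls against 575 to 752 CPM in *Dot1l*-cKO embryos of litter 1, and 334 to 351 against 431 to 490.4 CPM in litter 2. In the fit of litter 2, 5 of the 9 ganglion markers passed as higher, beside 3.98% of all genes, with a median log2 fold change of 0.50, and in litter 1 0 passed (median -0.18). Schwann precursor markers passed as higher in 4 of 6 cases in litter 2, and blood markers in 3 of 7. The interaction was positive for 9 of 9 ganglion, 7 of 7 blood, 6 of 6 mesenchyme, 5 of 5 endothelial and 5 of 6 Schwann precursor markers, beside 48.7% of all genes, and none of these markers passed. In litter 1 the medians of the mesenchyme (-0.33) and endothelial markers (-0.39) were negative, as that of the licensing genes was, with 0 passing. Over both litters the median was -0.10 for mesenchyme and -0.24 for endothelial markers (4 of 5 negative), again with 0 passing. In litter 2 the medians were 0.25 and 0.01, with 1 gene of each list passing as higher. The part of these markers in the licensing gene differences was not tested.

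The genes whose pattern over embryos was most like that of the licensing genes were found by the root mean square difference from their mean profile, each centred on its litter mean, over 10 embryos. Among 11004 genes with a mean log2 CPM of at least 3, these were *Tube1* (difference 0.0282), *Kif22* (0.0305), *Cdca3* (0.0429), *E2f3* (0.0456) and *Nde1* (0.0488). The median over the genes compared was 0.177, and the profile's own root mean square was 0.158. Measured the same way, *Mcm5* was nearest to the mean of the group it belongs to (0.0235), the other MCM subunits and *Cdc6*, *Cdc45* and *Mcm10* ran from 0.0531 (*Mcm4*) to 0.0988 (*Mcm10*), and *Cdt1* was at 0.273. Of the 5 named genes 0 passed the test between genotypes, with log2 fold changes from -0.24 (*E2f3*) to -0.12 (*Cdca3*).

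The start of *Mcm4* (chromosome 16 from 15623897 to 15637400, minus strand) lies 466 bases from that of *Prkdc*, which is read the other way. *Prkdc*, a DNA repair kinase looked up for its position, was at 34.7 to 41.1 CPM in controls and 29.9 to 33.5 CPM in *Dot1l*-cKO embryos of litter 1, and at 43.5 to 46.5 against 39.9 to 40.1 CPM in litter 2. The groups did not overlap in either litter, and its log2 fold change was -0.23 (adjusted p = 0.0481), a call kept in 1 of 10 leave-one-out fits and lost with library size only (0.0554) and limma-voom (0.0509). *Mcm4* overlapped between groups in both litters. Whether the pair differ in their genotype effect was not tested.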

How the data were processed

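Polyadenylated RNA of 10 mouse embryos was sequenced. The authors deposited raw read counts per gene. Per the methods of the study, reads were trimmed (TrimGalore), mapped to mm10 (STAR) and counted on GENCODE genes (featureCounts) within snakePipes, and whether counting used strand is not given in the sources used here. All columns were assigned to an embryo by name, and 54079 of 54146 gene identifiers matched the annotation of GRCm38, the same build. The quasi-likelihood test of edgeR 4.0.16 (R 4.3.3) was run on the counts with TMM, filterByExpr and the litter as a covariate. P-values were adjusted by Benjamini-Hochberg over all tested genes, at a threshold of 0.05. The standard error was the log2 fold change divided by the square root of F. The same test was run within each litter, for the interaction, and for litter among controls. CPM values used TMM library sizes, and CPM per kb the union of exons. DESeq2 1.42.0, limma 3.58.1 voom, other normalizations and filters, and leaving out each embryo were alternatives.

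The genes and lists were chosen with earlier results of these data known, so no p-value over a list is given. All 10 licensing genes were named, and of each other replication list those past the threshold or, with none, the one with the smallest p. For pattern likeness the 5 genes nearest to the mean profile were named, and CPM was logged after adding 0.01. Sequences came from RefSeq. One dorsal root ganglion marker, *Drgx*, could not be matched. The tests were also run on simulated counts. These held no litter difference and larger changes than the genotype differences of the licensing genes over both litters. They do not check the calls given here. Embryos are separate animals and each is 1 replicate. No pair of embryos of a group agreed within sampling noise, as a library deposited again would (chi-square per gene at least 9.31). Depth is counted reads without molecular identifiers.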

Additional observations from a re-analysis of the deposited data

How the results depend on the processing

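With both litters, 2 licensing genes passed as lower. Without an expression filter there were 5 (*Mcm3*, *Mcm6*, *Cdc6*, *Mcm10* and *Cdc45*), without the litter term 0, and with each embryo left out in turn from 0 to 3. The litter term removes a litter difference larger than the genotype difference, and dropping it left the directions as they were. The median over both litters ran from -0.25 to -0.14 with an embryo left out, and that of litter 1 from -0.34 to -0.12. In litter 1 the count of 0 lower genes became 2 without the filter, 1 with DESeq2 and 0 to 1 with an embryo left out. In litter 2, with an embryo left out, the lower genes numbered 0 to 3, the higher genes 0 to 1, and the median log2 fold change ran from -0.28 to -0.0699. The median interaction (0.11) ran from -0.0358 to 0.23, and the median litter difference among controls from 0.79 to 0.96. The cause of these shifts was not tested. Over the fits of single licensing genes, 508 of 560 alternatives kept sign and side of the threshold, 11 newly passed and 22 no longer passed. The other 19 changed sign without passing the threshold before or after, all of them with an embryo left out and all within litters or in the interaction. No called value changed sign. The litter, which both groups share, is a term of the model with both litters, and the fit without it is given here. Beyond the litter, embryos of a litter have different numbers and none were paired. Limits are the number of embryos, 3 against 3 and 2 against 2 within litters, the sex of the embryos in litter 2 and the floxed alleles of the controls. A further limit is the transgene, which only the *Dot1l*-cKO embryos carried, so its effect and that of the deletion cannot be told apart. The lowest count of a licensing gene in an embryo was 421.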
